A study of Mus musculus with 15 samples.

Results

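The 7 collagen genes described here code for collagens that do not build the thick banded fibrils themselves. They are *Col6a1*, *Col6a2* and *Col6a3*, the chains of beaded-filament collagen VI, *Col12a1*, *Col14a1* and *Col16a1*, which code for fibril-associated collagens, and *Col13a1*, which codes for a transmembrane collagen. They were read from the probes whose RefSeq identifier is a transcript of 1 of these genes, which gave 12 of the 56605 probes of the array and 7 of its 23458 gene names. The genes were chosen by family, with earlier results of these data known. The cells, labelled as Mouse Embryonic Fibroblasts (MEFs), were of the established 3T3 line of Balb/c origin, which was derived from embryonic connective tissue, so all groups come from 1 line. Their total RNA was labelled with Cy3 and hybridized to 1-color Agilent arrays with probes of 60 bases. Each of 5 groups holds 3 arrays. The controls were left untreated, and the other cultures were treated by TNFα at 10 ng/ml, TGFß1 at 5 ng/ml, IL-1β at 1 ng/ml, or IL-6 at 20 ng/ml together with its soluble receptor sIL-6Rα at 25 ng/ml. The labels give 24 or 72 h of culture. The arrays of controls, TNFα and TGFß1 were made at 24 h and came from 3 independent experiments, while the time of the IL-1β and IL-6 arrays is not given in the sources used here. For the IL-1β and IL-6 groups nothing says that the arrays came from separate cultures, so the spread between these arrays may be technical. The p-values of these groups rest on an estimate of the spread shared by all groups, and may not reflect the spread between separate cultures.

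Collagen VI is assembled in the cell from 3 different chains, which form monomers, dimers and tetramers before they are secreted and joined end to end into beaded microfilaments around cells. Fibril-associated collagens with interrupted triple helices, such as collagens XII and XIV, lie on the surface of collagen I fibrils and affect how fibrils are spaced and bound. Transmembrane collagens such as collagen XIII stay anchored in the plasma membrane and can be shed by furin-like proteases. Fibroblasts are a main source of collagen VI in connective tissue.

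In outline, MEFs treated by TNFα had lower signals of all 3 chain genes, of *Col12a1* and of *Col16a1* than controls. MEFs treated by TGFß1 had lower signals of *Col6a1*, *Col6a2* and *Col12a1* and a higher signal of *Col6a3*. These TGFß1 calls were not firm, since all were lost without control 11, without TGFß1 2 or when dim probes were tested too. All 4 were kept with the slide in the model. No member was called with IL-1β or with IL-6, and *Col12a1* was higher with IL-6 than with TNFα or TGFß1.

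The values are log2 signals minus the 75th percentile of the same array, so that 0 is the brightness of a fairly bright spot and a step of 1 is a doubling. Probes differ in how strongly they bind, so levels are compared between arrays and not between genes. Called means a q-value below 0.05 (limma's moderated two-sided test, Benjamini-Hochberg adjustment over 29333 probes) together with a change of 1.5-fold or more in either direction. The 75th percentile before scaling was 501 to 674, 48.3% to 54.8% of probes were well above background on an array, and no spot was saturated. The 15 arrays lay on 2 slides, each of which held arrays of all 5 groups. Of the controls only control 6 lay on slide 2, and only TNFα 14 and TGFß1 7 of their groups lay on slide 1. IL-1β 15 and IL-6 13 were the only arrays of their groups on slide 2. Within a slide, differences of TNFα or TGFß1 from controls therefore have a single array on 1 side. Differences of IL-1β or IL-6 from controls on slide 2 compare a single array with a single control. Of the known response genes, 4 of 4 targets of TGFß1 were called higher with TGFß1, 4 of 4 shared targets of TNFα and IL-1β were called higher with each of these cytokines, and 2 of 4 targets of IL-6 were called higher with IL-6. All 6 fibroblast markers were well above background on all 15 arrays. Of 4 markers each, none for skeletal muscle was above background on any array, the epithelial *Cdh1* was on 0 arrays and *Epcam* on 1, and the leukocyte *Ptprc* and *Adgre1* and the endothelial *Cdh5*, *Tek* and *Kdr* were on 0. The exceptions were *Esrp1*, on 8 arrays, *Cldn4*, on 1, and *Csf1r*, *Cd3e* and *Pecam1*, on all 15. The last 3 were called in no comparison with control.

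The 12 probes were not detected alike. The 9 probes of *Col6a1*, *Col6a2*, *Col6a3*, *Col12a1* and *Col16a1* were well above background on all 15 arrays. *Col14a1*, whose product decorates the surface of fibrils, was well above background on 14 arrays, all but TNFα 14. Both probes of *Col13a1* were below background on every array, between -7.85 and -5.64, where the dimmest probe well above background lay between -5.71 and -4.98 depending on the array. *Col13a1* therefore has no level, no fold-change and no test in any group here. The 5 genes with 2 probes are represented by the brighter one, and the dimmer one is given as a second reading. The r between both probes over the 15 arrays was 0.991 for *Col6a2*, 0.935 for *Col6a3*, 0.935 for *Col12a1* and 0.828 for *Col16a1*, whereas for the undetected *Col13a1* it was 0.19.

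The stretches before the starts of the chain genes are shown because *Col6a3* moved against *Col6a1* and *Col6a2* with TGFß1, while all 3 fell with TNFα. They are the 250 bases upstream of 1 start per gene from a RefSeq-based set of promoters on GRCm38.p6, all 3 genes on the minus strand, written 5′ to 3′. Distances to the start are counted from the end of each window. The gene *Col6a3* is listed up to chr1:90844001, so the last bases of its window lie within the gene. *Col6a1* lies at chr10:76726045-76726294, *Col6a2* at chr10:76623631-76623880, next to it among protein-coding genes and on the same strand, and *Col6a3* at chr1:90843972-90844221. Capitals mark matches on either strand to the AP-1 motif TGAGTCA and to the SMAD half-site CAGAC.
Col6a1: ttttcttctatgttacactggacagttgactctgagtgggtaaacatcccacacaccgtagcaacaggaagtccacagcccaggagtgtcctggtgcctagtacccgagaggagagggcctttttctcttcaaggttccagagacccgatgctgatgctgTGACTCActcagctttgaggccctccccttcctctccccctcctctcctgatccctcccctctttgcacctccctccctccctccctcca
Col6a2: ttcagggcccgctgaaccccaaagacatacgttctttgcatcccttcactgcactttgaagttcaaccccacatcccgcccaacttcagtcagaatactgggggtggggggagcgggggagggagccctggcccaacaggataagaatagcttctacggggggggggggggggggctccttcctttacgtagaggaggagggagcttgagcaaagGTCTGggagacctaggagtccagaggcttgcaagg
Col6a3: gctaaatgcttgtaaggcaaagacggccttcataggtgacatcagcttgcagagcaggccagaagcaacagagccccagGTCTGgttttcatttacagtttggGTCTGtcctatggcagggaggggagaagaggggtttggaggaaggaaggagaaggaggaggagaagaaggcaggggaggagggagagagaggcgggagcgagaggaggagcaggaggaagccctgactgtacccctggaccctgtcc
The window of *Col6a1* holds 1 AP-1 match, 90 bases before the start, and no SMAD half-site. That of *Col6a2* holds 1 SMAD half-site, 35 bases before the start, and that of *Col6a3* holds 2, at 171 and 147 bases, with no AP-1 match in either.  Among 32851 windows of the same length in the table, 4.46% hold the AP-1 motif and 42.2% the SMAD half-site, and no match of one overlaps the other in the windows shown. A match of letters is a description and shows no binding. Windows of *Col13a1* and *Col16a1* held neither motif, and *Col12a1* and *Col14a1* were not matched in the table.

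*Col6a1* codes for the α1 chain of collagen VI, which forms the monomer with the α2 and α3 chains. Its log2 signal was 7.03, 7.43 and 7.36 on controls 1, 6 and 11 and 5.30, 6.02 and 5.86 on TNFα 4, 9 and 14. With TGFß1 it was 6.25, 6.70 and 6.62 on arrays 2, 7 and 12, with IL-1β 6.54, 7.32 and 6.79 on arrays 5, 10 and 15, and with IL-6 6.94, 7.44 and 7.16 on arrays 3, 8 and 13. All TNFα and all TGFß1 arrays lay below all controls, whereas the IL-1β and IL-6 arrays overlapped with them. The means fell in the order control (7.27 ± 0.21, SD, n = 3), IL-6 (7.18 ± 0.25), IL-1β (6.88 ± 0.40), TGFß1 (6.53 ± 0.24) and TNFα (5.73 ± 0.38), in which only the last step was called (q = 0.0377). That call held in 10 of the 15 fits that left out 1 array.

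*Col6a2* codes for the α2 chain. Its signal was 4.01, 4.21 and 4.16 on controls 1, 6 and 11 and 1.44, 2.25 and 2.25 on TNFα 4, 9 and 14. It was 2.80, 3.43 and 3.29 on TGFß1 2, 7 and 12, 3.11, 3.95 and 3.34 on IL-1β 5, 10 and 15, and 3.54, 4.15 and 3.75 on IL-6 3, 8 and 13. The order of the means was that of *Col6a1*, from 4.13 ± 0.11 (SD, n = 3) in controls to 3.17 ± 0.33 with TGFß1 and 1.98 ± 0.47 with TNFα, and again the only called step between neighbours was from TGFß1 to TNFα (q = 0.0091). The TNFα arrays stood below every other array, and the IL-1β arrays lay below all controls without reaching the call. Across the 15 arrays, *Col6a2* was the gene most like *Col6a1* of 13483 genes compared (r = 0.989), followed by *Tmem9b* (r = 0.977) and *Copz2* (r = 0.976). The genes next most like *Col6a2* were *Cd248* (r = 0.978) and *Csmd3* (r = 0.974). These correlations are descriptions over 15 arrays that share 2 slides and 5 groups.

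*Col6a3* codes for the long α3 chain, without which the trimer does not form. Its signal was 5.08, 5.58 and 5.30 on controls 1, 6 and 11 and 5.94, 6.24 and 6.20 on TGFß1 2, 7 and 12. It was 3.50, 4.31 and 4.10 on TNFα 4, 9 and 14, 4.46, 5.34 and 4.94 on IL-1β 5, 10 and 15, and 5.05, 5.61 and 5.39 on IL-6 3, 8 and 13. Here the TGFß1 arrays were the highest of the series and the TNFα arrays the lowest. From TGFß1 (6.13 ± 0.16, SD, n = 3) the means fell to IL-6 (5.35 ± 0.28, q = 0.0438), then to control (5.32 ± 0.25) and IL-1β (4.91 ± 0.44) with no called step, and then to TNFα (3.97 ± 0.42, q = 0.0473). The pattern most like it was that of *Fkbp7* (r = 0.982), then *Sec23a* (r = 0.972) and *Col5a1* (r = 0.965). Its r with *Col6a1* was 0.63 and with *Col6a2* 0.669.

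*Col12a1* codes for collagen XII, found on fibrils of tissues under tension. Its signal was 0.76, 1.41 and 1.06 on controls 1, 6 and 11, -0.74, -0.09 and -0.51 on TNFα 4, 9 and 14, and -0.05, 0.18 and 0.34 on TGFß1 2, 7 and 12. It was 0.22, 0.83 and 0.87 on IL-1β 5, 10 and 15 and 1.23, 2.10 and 1.91 on IL-6 3, 8 and 13. The highest arrays were thus 2 of the IL-6 group, while IL-6 3 lay below control 6. Means fell in the order IL-6 (1.75 ± 0.46, SD, n = 3), control (1.08 ± 0.32), IL-1β (0.64 ± 0.37), TGFß1 (0.15 ± 0.19) and TNFα (-0.45 ± 0.33) with no called step between neighbours. *Sfxn5*, *Flot1* and *Tnfrsf1a* were most like it (r = 0.972, 0.971 and 0.963).

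*Col16a1* codes for collagen XVI, a minor fibril-associated collagen. Its signal was 5.60, 5.96 and 6.08 on controls 1, 6 and 11, 5.01, 5.07 and 5.35 on TNFα 4, 9 and 14, and 5.96, 6.13 and 6.04 on TGFß1 2, 7 and 12. On IL-1β 5, 10 and 15 it was 5.35, 5.81 and 5.59, and on IL-6 3, 8 and 13 it was 5.75, 6.16 and 5.97. Only the TNFα arrays lay below all controls. No step between neighbours in the order TGFß1 (6.04 ± 0.08, SD, n = 3), IL-6 (5.96 ± 0.20), control (5.88 ± 0.25), IL-1β (5.58 ± 0.23) and TNFα (5.15 ± 0.18) was called. Among the members it was most like *Col6a3* (r = 0.921), and among all genes *Fam114a1* (r = 0.938), *Trp53i13* (r = 0.934) and *Arhgef25* (r = 0.931) were most like it.

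*Col14a1* codes for collagen XIV, a relative of collagen XII. Its dim signal was -4.63, -3.17 and -4.64 on controls 1, 6 and 11, -4.65, -4.28 and -5.74 on TNFα 4, 9 and 14, and -3.69, -4.19 and -3.24 on TGFß1 2, 7 and 12. It was -4.86, -4.33 and -4.09 on IL-1β 5, 10 and 15 and -4.81, -4.91 and -3.49 on IL-6 3, 8 and 13. In every group the slide 2 arrays lay above the slide 1 arrays, and the fitted slide difference was 1.07, where the median absolute difference over all probes was 0.203 and the other detected probes of these collagens had -0.39 to 0.23. With the groups pooled over slides, all groups but TNFα and TGFß1 overlapped with each other. Most like it were *Dynlt3* (r = 0.961), *Celf4* (r = 0.938) and *Myo3b* (r = 0.936), a likeness that includes the slide.

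**Figure D1:**
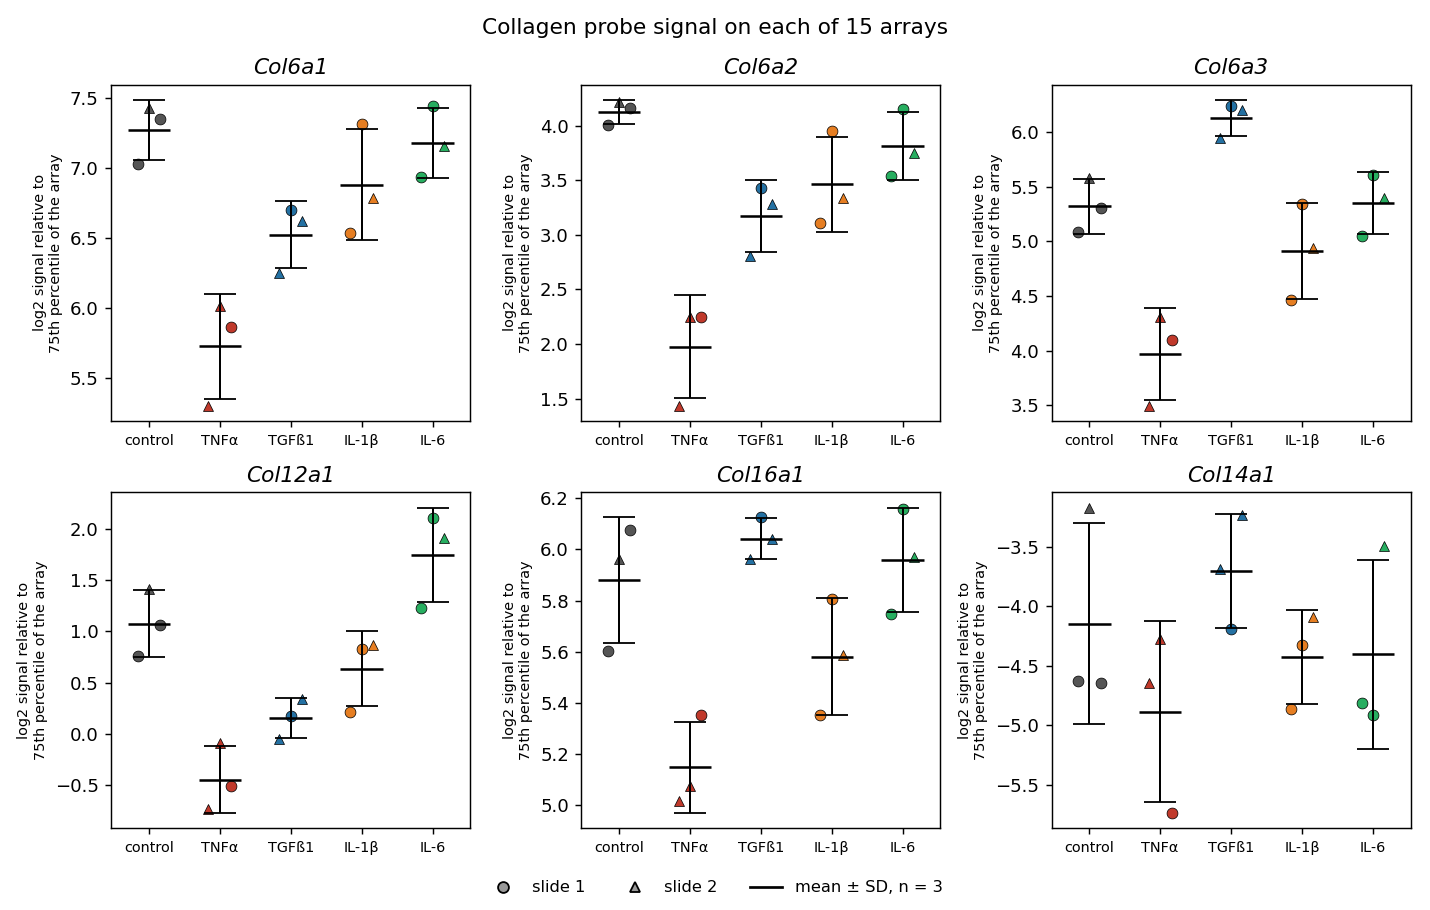
Log2 signal relative to the 75th percentile of the array (vertical axis, a scale of its own for each gene) for the brighter probe of 6 collagen genes in 5 groups of 3 arrays. Circles are slide 1 and triangles slide 2, with the mean and SD (n = 3) in black; *Col6a1*, *Col6a2* and *Col12a1* were lowest with TNFα and next lowest with TGFß1, *Col6a3* was highest with TGFß1, and *Col14a1* separated by slide.

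The first question was how MEFs treated by TNFα, used in the study as a proinflammatory stimulus, differed from controls. Of the 6 genes tested, 5 were called lower and none higher, where 10.2% of all probes were called and 6.01% were called lower. The median log2 fold-change of the 6 was -1.44, and that of all probes 0.04. *Col6a2* fell by 2.15 on the log2 scale (standard error 0.27, q = 0.000262), a 4.44-fold lower signal. *Col6a1* fell by 1.55 (standard error 0.24, q = 0.00109), *Col12a1* by 1.52 (standard error 0.26, q = 0.00253) and *Col6a3* by 1.35 (standard error 0.25, q = 0.00401). The change of *Col16a1* was the smallest, a fall of 0.73 (standard error 0.16, q = 0.0108), or 1.66-fold. All 4 second probes of these genes were called lower as well, with -1.49 for *Col6a2*, -1.39 for *Col6a3*, -1.76 for *Col12a1* and -0.89 for *Col16a1*. Each array holds RNA of a whole culture, so fewer cells expressing a gene and less of its RNA per cell cannot be told apart.

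*Col14a1* was not called with TNFα (-0.74, interval -1.84 to 0.36, q = 0.391). Within slides its difference was -1.11 on slide 1 and -1.29 on slide 2, and a model with a slide term called it lower (-1.10, q = 0.00696). The slide 1 value rests on TNFα 14 alone, where *Col14a1* was not well above background. With normexp background correction and no slide term, the difference was -0.18 (q = 0.546). The 5 called genes had the same direction on both slides, with -0.49 on slide 1 and -0.92 on slide 2 for *Col16a1*. For *Col6a2* the difference went from -1.83 to -2.37, and falls were larger on slide 2 for each of the 5. There control 6 was the only control, and it was the highest control for *Col6a1*, *Col6a2*, *Col6a3* and *Col12a1*. On slide 1, TNFα 14 was the only TNFα array. Without TNFα 4, *Col16a1* lost its call (-0.67, q = 0.0546) and 4 genes were called. TNFα 4 had the lowest signal of the TNFα arrays for *Col6a1*, *Col6a2*, *Col6a3*, *Col12a1* and *Col16a1*. This was not particular to TNFα. With the brighter probes, control 1, TGFß1 2, IL-1β 5 and IL-6 3 were likewise the lowest of their groups for each of these genes. These arrays have the label numbers 1 to 5, a run for which the main fit has no term.

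With TGFß1, the profibrotic stimulus of the study, 4 of 6 genes were called, where 18.0% of all probes were called, 7.26% higher and 10.7% lower. Their median was -0.29, and that of all probes 0.06. *Col6a2* fell by 0.95 (standard error 0.27, q = 0.0222), *Col12a1* by 0.92 (standard error 0.26, q = 0.0233) and *Col6a1* by 0.75 (standard error 0.24, q = 0.0361), folds of 1.94, 1.89 and 1.68. *Col6a3* rose by 0.81 (standard error 0.25, q = 0.0348), or 1.75-fold. For *Col6a2* (-0.67, q = 0.0245) and *Col12a1* (-1.16, q = 0.0235) the second probe was called lower too, whereas the second probe of *Col6a3* had 0.71 (q = 0.0718) and was not called, although its 3 TGFß1 arrays lay above all controls. *Col16a1* (0.16, interval -0.19 to 0.52, q = 0.503) and *Col14a1* (0.44, interval -0.65 to 1.54, q = 0.56) were not called.

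The directions of these 4 calls were the same on both slides, at -0.49 and -1.0 for *Col6a1*, -0.65 and -1.17 for *Col6a2*, -0.73 and -1.26 for *Col12a1* and 1.05 and 0.49 for *Col6a3* on slides 1 and 2. TGFß1 7 was the only TGFß1 array on slide 1, and control 6 the only control on slide 2. The calls were not firm: 0 of the 4 were left when dim probes were tested too (q = 0.0509 to 0.0812). Also left were 0 without control 11 or without TGFß1 2, 1 without control 6, 2 without TGFß1 7 or without TGFß1 12, and 3 without control 1. Quantile normalization kept 3 calls and took that of *Col6a3* (0.60, q = 0.125). All 4 were kept with normexp background correction, with the slide in the model, and with the slide and the run of label numbers in it.

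**Figure D2:**
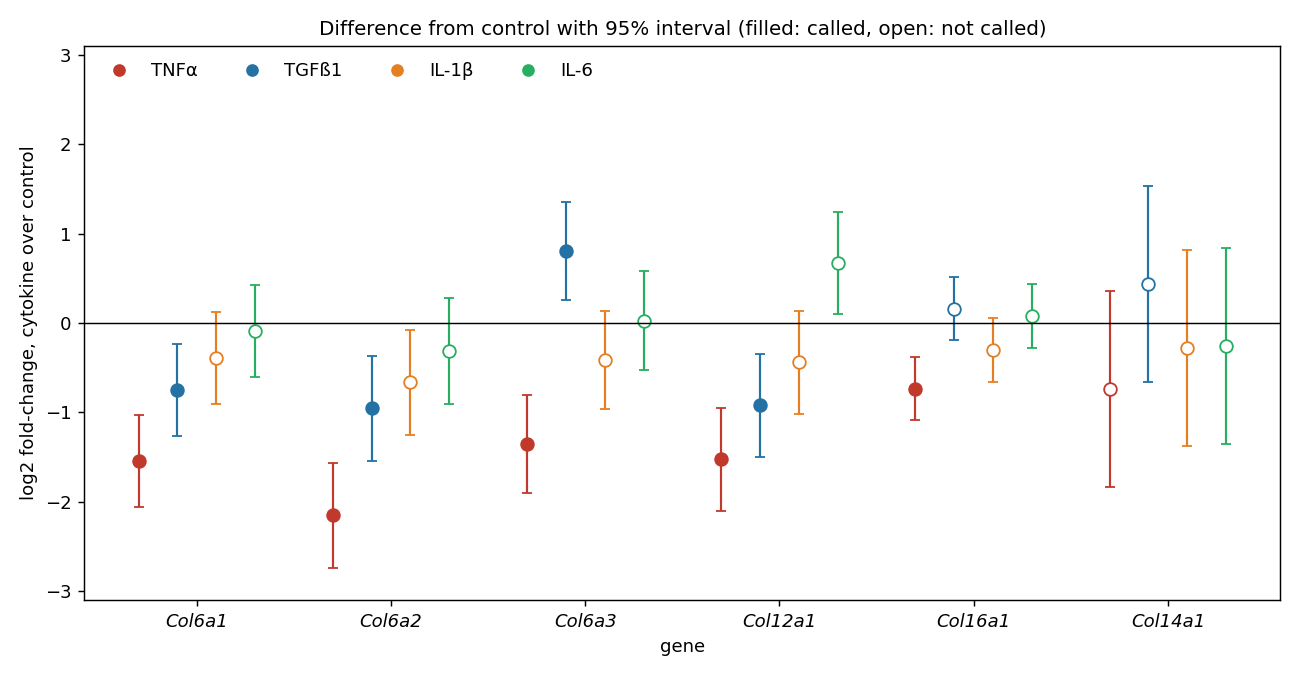
Log2 fold-change of 4 cytokine groups over control (vertical axis) for 6 collagen genes, with 95% intervals from the fit of 15 arrays; filled points were called and open points were not. All 4 comparisons share the 3 control arrays; with TGFß1 the point of *Col6a3* lies at 0.81 while those of *Col6a1*, *Col6a2* and *Col12a1* lie between -0.95 and -0.75.

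Whether the chains moved unequally was also read within arrays, where any factor common to a whole array cancels. The log2 difference of *Col6a3* minus *Col6a1*, set to 0 at the mean of the controls, was -0.10 to 0.10 on controls and 1.64, 1.49 and 1.53 on TGFß1 2, 7 and 12. It was 0.14 to 0.24 with TNFα, -0.13 to 0.10 with IL-1β and 0.06 to 0.19 with IL-6. The TGFß1 arrays stood apart from all others by over 1 on this scale, a shift of 1.55 against controls (exact permutation test, two-sided, p = 0.1, the smallest p that 3 against 3 arrays can give). The test was added after seeing the data, over 10 pairs of genes and 4 cytokines, and no p of these 40 fell below 0.174 after Benjamini-Hochberg adjustment. In 23 of the 40 the cytokine arrays did not overlap with controls, and each of these had the same smallest p, so it does not set this pair apart. The shift was 1.54 with quantile normalization, 1.60 with another background correction, 1.46 with the second probe of *Col6a3*, 1.54 and 1.49 on each slide alone, and 1.5 to 1.6 when 1 array was left out. *Col6a3* minus *Col6a2* shifted by 1.76 and *Col12a1* minus *Col6a3* by -1.73 with TGFß1.

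The 40 relations share the same controls and overlap in their genes, so the further shifts are given as a description. *Col16a1* minus *Col6a2* shifted by 1.42 with TNFα and 1.12 with TGFß1, and *Col16a1* minus *Col6a1* by 0.81 and 0.91. *Col16a1* minus *Col12a1* shifted by 0.79 with TNFα and 1.08 with TGFß1, *Col6a3* minus *Col6a2* by 0.80 with TNFα and *Col12a1* minus *Col6a2* by 0.98 with IL-6. A shift can rest on the probe chosen. *Col6a2* minus *Col6a1* was -0.72, -0.62 and -0.47 on TNFα 4, 9 and 14, below all controls (-0.07 to 0.12), but the shift of -0.60 was seen with the brighter probe only and was 0.05 with the second probe of *Col6a2*. *Col12a1* minus *Col6a1* was 0.49, 0.85 and 0.95 on IL-6 3, 8 and 13, above all controls (-0.10 to 0.17). This shift of 0.76 was 0.68 with the second probe of *Col12a1*, 0.76 and 0.78 on each slide alone, and 0.67 to 0.90 when 1 array was left out (exact permutation p = 0.1).

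**Figure D3:**
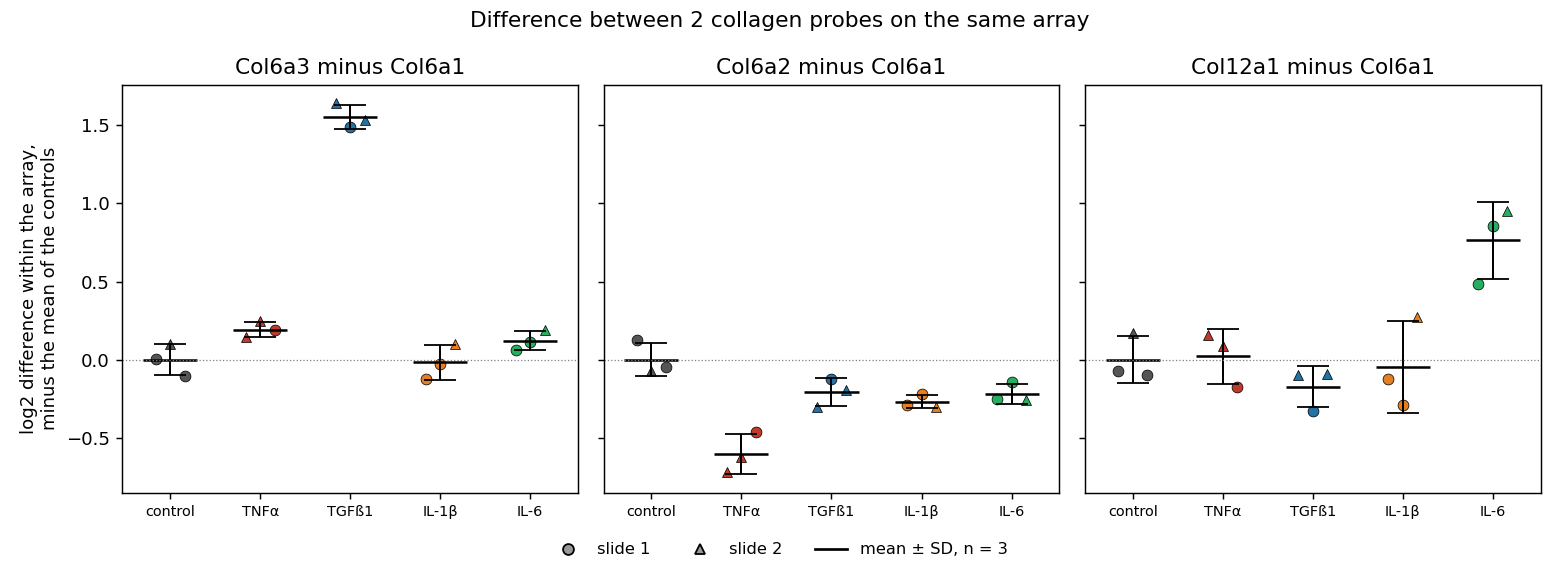
Log2 difference between the signals of 2 collagen probes on the same array, minus the mean of the 3 controls (vertical axis), in 5 groups of 3 arrays. Circles are slide 1, triangles slide 2, black bars the mean and SD (n = 3); *Col6a3* minus *Col6a1* was 1.49 to 1.64 with TGFß1 and at most 0.24 elsewhere, and *Col12a1* minus *Col6a1* was 0.49 to 0.95 with IL-6.

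With IL-1β, 0 of 6 genes were called by limma, where 0.252% of all probes were called. At an unadjusted p below 0.05 there was 1 gene, while 3.73% of all probes passed that threshold. This gene was *Col6a2* (-0.66, interval -1.25 to -0.07, q = 1.00), with -0.56 on slide 1 and -0.87 on slide 2. *Col12a1* (-0.44), *Col6a3* (-0.41), *Col6a1* (-0.39), *Col16a1* (-0.30) and *Col14a1* (-0.28) had the same sign with intervals that include 0, the lowest reaching -1.38 for *Col14a1*. With the slide and the run of label numbers in the model, *Col6a2* was called (q = 0.0176).

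With IL-6, 0 of 6 genes were called by limma, where 0.0682% of all probes were called. Again 1 gene had an unadjusted p below 0.05, against 3.29% of all probes. This was *Col12a1* (0.67, interval 0.10 to 1.24, q = 1.00), with 0.76 on slide 1 and 0.50 on slide 2, and its second probe had 0.58, with 0.98 on slide 1 and -0.21 on slide 2. With the slide and the run in the model it was called higher (q = 0.00973). *Col6a2* (-0.31), *Col14a1* (-0.26), *Col6a1* (-0.09), *Col6a3* (0.03) and *Col16a1* (0.08) had intervals that include 0, and for *Col6a1* the interval was -0.61 to 0.42.

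TNFα and TGFß1 were also compared directly. Of 6 genes tested, 4 had a called lower signal in the TNFα group, where 11.9% of all probes were called and 5.05% were called lower. *Col6a3* differed most (-2.16, standard error 0.25, q = 8.38e-05), a 4.47-fold lower signal, followed by *Col6a2* (-1.20, q = 0.0091), *Col16a1* (-0.90, q = 0.00228) and *Col6a1* (-0.80, q = 0.0377). *Col12a1* (-0.60, interval -1.18 to -0.03, q = 0.16) and *Col14a1* (-1.18, interval -2.28 to -0.09, q = 0.149) were not called. With the slide in the model *Col14a1* was called (q = 0.00264), and with the slide and the run *Col12a1* was called too (q = 0.00051). Over the alternatives other than leaving out 1 array, the difference of *Col14a1* was -1.29 to -0.43. *Col6a1* lost its call with quantile normalization (-0.68, q = 0.0963) and when dim probes were tested (q = 0.0861). Its call held in 10 of the 15 fits that left out 1 array, and was lost without control 11, TNFα 4, TNFα 14, TGFß1 7 or TGFß1 12.

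The other pairs of cytokines placed IL-1β and IL-6 apart from TNFα. IL-1β against TNFα gave 4 genes called higher, where 4.87% of all probes were called and 3.17% were called higher. They were *Col6a2* (1.49, q = 0.00694), *Col6a1* (1.15, q = 0.0137), *Col12a1* (1.08, q = 0.0317) and *Col6a3* (0.95, q = 0.0473). Only *Col6a2* was still called without TNFα 4 or without IL-1β 10, and only *Col6a2* and *Col6a1* without TNFα 14, without IL-1β 15 or when dim probes were tested too (*Col12a1* q = 0.0745, *Col6a3* q = 0.110). *Col6a3* was called in 3 of the 15 fits that left out 1 array. IL-6 against TNFα gave 5 genes called higher, where 8.70% of all probes were called and 5.21% were called higher. *Col12a1* differed most, 4.58-fold (2.19, q = 0.000183), then *Col6a2* (1.84, q = 0.000852), *Col6a1* (1.45, q = 0.00173), *Col6a3* (1.38, q = 0.00377) and *Col16a1* (0.81, q = 0.0066).

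Against TGFß1, IL-6 gave 2 calls, where 16.4% of all probes were called, 10.1% higher and 6.29% lower. *Col12a1* was 3.01-fold higher with IL-6 (1.59, q = 0.00113) with its second probe at 1.74, and *Col6a3* was lower (-0.78, q = 0.0438), a call that held in 6 of the 15 fits that left out 1 array and was lost without control 11, TNFα 14, IL-1β 15, any TGFß1 or any IL-6 array, and when dim probes were tested too (q = 0.0984). IL-1β against TGFß1 gave 1 call, where 17.0% of all probes were called and 6.23% were called lower, for *Col6a3*, which was lower with IL-1β (-1.21, q = 0.00469). IL-1β against IL-6 gave 0 calls by limma, where 0.416% of all probes were called, and 2 genes at an unadjusted p below 0.05, against 4.81% of all probes. These were *Col12a1* (-1.11, interval -1.68 to -0.54, q = 0.144) and *Col16a1* (-0.38, q = 0.929), and with the slide and the run in the model *Col12a1* was called (q = 0.000338).

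Genes around these collagens give the setting, from lists that were made with earlier results of these data known. Of 13 other genes of the same families, 12 had a probe and 3 were tested, since the others, among them the further chains *Col6a4*, *Col6a5* and *Col6a6*, were not above background in all arrays of any group. *Col17a1*, a transmembrane collagen of hemidesmosomes, was called higher with TGFß1 (2.00, q = 0.00451), at 0.98 on slide 1 and 3.21 on slide 2, and no other was called against control. For comparison, 10.2% of all probes were called with TNFα and 18.0% with TGFß1. Of 11 fibrillar collagens, 9 were tested. With TNFα, 5 were called lower and 1 higher, with a median of -0.79, led by *Col3a1* (-2.17), *Col5a3* (1.5), *Col5a1* (-1.21) and *Col5a2* (-0.89). With TGFß1, *Col5a3* (3.29) and *Col5a1* (0.79) were called higher and none lower, with a median of 0.27. These 2 calls among 9 genes are near the share of all probes.

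Of 18 partners of these collagens, the receptors, the shedding protease and the matrix molecules that bind them, 17 were tested. With TNFα, 4 were called higher and 4 lower, where 10.2% of all probes were called, with a median of -0.26. *Itga2*, an integrin chain that binds collagen, was at least 3.27-fold higher (no control above background), and *Tnc*, a tenascin of remodelled matrix, rose by 2.58. *Fmod*, a proteoglycan on fibrils, fell by 3.31, with 2 of 3 TNFα arrays above background, and *Itga11*, a collagen-binding integrin chain of fibroblasts, by 2.19. With TGFß1, 7 were called higher and 3 lower, where 18.0% of all probes were called, with a median of 0.21. *Tnc* rose by 3.20, and *Cspg4*, which codes for NG2, a proteoglycan that binds collagen VI, was at least 4.50-fold higher (no control above background). *Itga2* and *Cspg4* were above background on 4 arrays each, so they passed the filter only through treated arrays. Their calls, which the counts include, are therefore descriptions. *Tnxb*, a tenascin that binds collagens XII and XIV, fell by 2.23 and *Dcn*, the proteoglycan decorin, by 1.81. Of 10 genes of chain folding and hydroxylation, *Plod1* was called lower with TNFα (-1.16), and *Plod2* (0.94) and *Fkbp10* (0.61) were called higher with TGFß1, with medians of -0.40 and 0.33. These folding counts are near the shares of all probes called. With IL-1β and with IL-6, no gene of these 4 lists was called by limma, while 4 partners with IL-1β and 2 with IL-6, and no gene of the other lists, had an unadjusted p below 0.05. Of all probes, 0.252% were called with IL-1β and 0.0682% with IL-6, and 3.73% and 3.29% had such a p. The study chose *Col5a1*, *Col5a3*, *Dcn* and *Itga11* for a gene set on these same samples, so their direction here is not independent evidence.

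**Figure D4:**
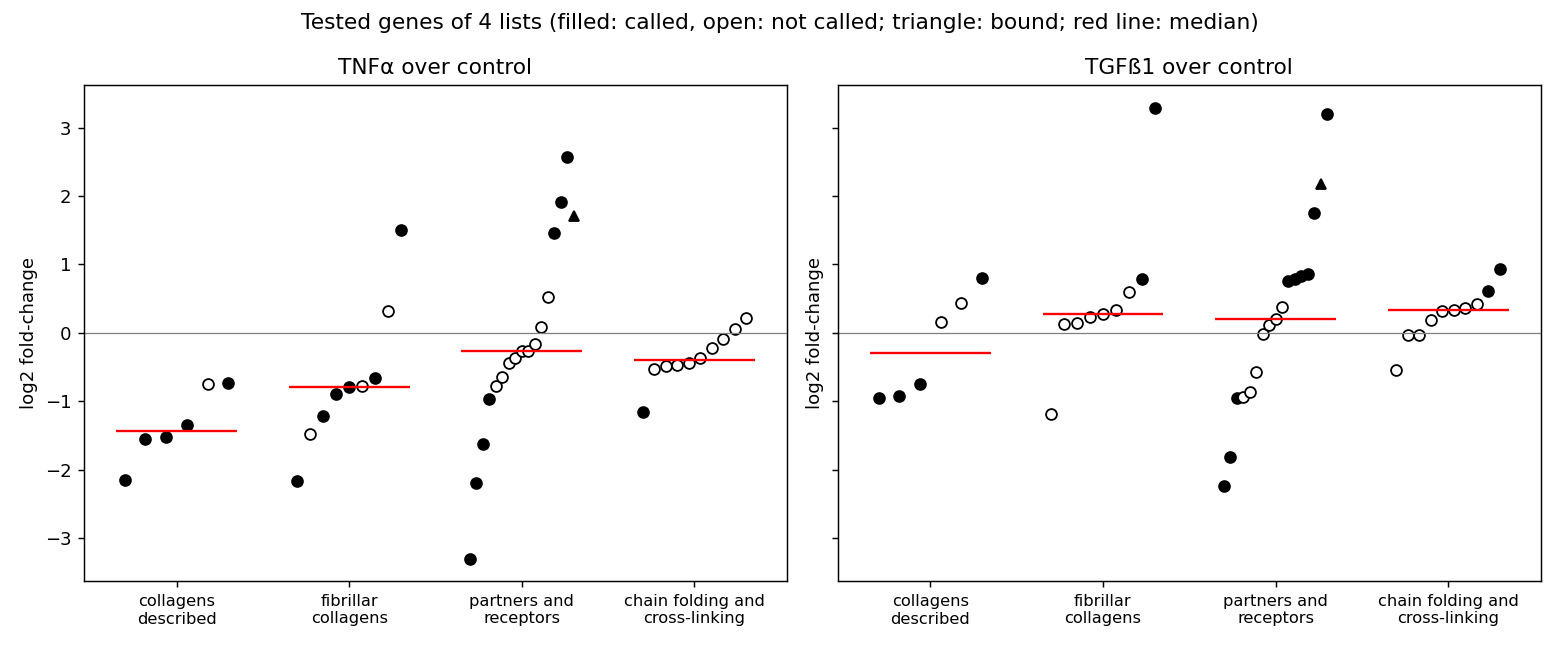
Log2 fold-change over control (vertical axis, same scale in both panels) with TNFα on the left and TGFß1 on the right for the tested genes of 4 lists, sorted within each list. Filled points were called, open points were not, triangles are lower bounds for genes with no control array above background, and red lines are medians; with TGFß1 the collagens described here have a median of -0.29 and the fibrillar collagens one of 0.27.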

How the data were processed

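Total RNA was measured on 15 one-color arrays of 62976 spots. The authors extracted spots with Agilent Feature Extraction (version 10.7.3.1 in the submitters' processing notes), including its background subtraction and detrending. What the authors deposited are processed signal intensities per spot, not normalized between arrays. Their series-wide values are identical to these intensities (largest difference 0). The study's methods name limma, a q-value of 0.05 and, together with the clustering, a Z-score normalization, which the deposited intensities do not carry. The 1.5-fold threshold is also the study's. Groups were taken from the labels. An array is named by its group and its label number. Slides were read from the file headers.

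Here, spots marked as non-uniform or outliers were left out, log2 processed signals of a probe's spots were averaged, and each array's 75th percentile, taken over all but the control spots, was subtracted. Well above background means that the scanner software marked a share of 0.5 or more of a probe's spots so, and 29333 probes that were so on every array of at least 1 group were tested. All 15 arrays entered 1 fit (limma 3.58.1, R 4.3.3, data.table version 1.17.8) with 5 group means, so all comparisons share 1 estimate of the spread. Tests were two-sided with Benjamini-Hochberg adjustment over all probes tested. Probes were named through RefSeq identifiers of GRCm38.p6 (33762 of 56605 matched). The array was designed on an older build, so the positions given are those of the promoter windows of that table. In arrays simulated for TGFß1 against control over the 29333 probes, 55% of probes changed by 1 on the log2 scale and 82% of those changed by 2 were called. Only a small part of the probes was changed there, with independent noise, so these shares are not those of the comparison in the data. Intensities are not counts, and the number of arrays limits the precision.

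The alternatives were quantile normalization, normexp background correction with an offset of 50, no filter on dim probes, well above background on all 15 arrays, the slide, the slide with the run of label numbers (1 to 5, 6 to 10 and 11 to 15), the mean of a gene's probes, no fold-change criterion, fits of only the groups compared, and leaving out each array. The within-array differences and their exact permutation tests were added after seeing the data. Named were all members, up to 4 called genes with the largest change per list and comparison, and the 3 genes most like each member. The members and lists were chosen with earlier results of these data known. The authors' comparisons in their supplementary tables were not used.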

Additional observations from a re-analysis of the deposited data

How the results depend on the processing

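Of 500 member values under the 10 alternatives other than leaving out 1 array, 472 kept their direction and side of the threshold, 11 lost a call, 14 gained one and 3 turned sign. Of 900 values with 1 array left out, 839 kept both, 49 lost a call, 2 gained one and 10 turned sign. No value that turned sign was called. The count of genes called was 4 to 5 with TNFα, 0 to 4 with TGFß1 and 3 to 4 in the direct comparison when 1 array was left out, and 0 throughout with IL-1β and with IL-6. The count with TGFß1 was 0 with no filter on dim probes, where more probes are adjusted for. With the slide and run in the model, 1 gene each was called with IL-1β and with IL-6. The runs, each with 1 array of every group, are a block that no label states as a pairing. Beside the calls given in the report, that model added *Col14a1* for IL-1β against TNFα (0.82) and IL-6 against TNFα (0.85), both also called with the slide alone, and *Col6a1* for IL-6 against TGFß1 (0.62), and took none. Quantile normalization also added *Col6a1* for IL-6 against TGFß1 (0.83) and took *Col6a3* there (-0.58).

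The values that turned sign were, under quantile normalization, -0.058 with TGFß1 and 0.13 for IL-6 against TGFß1 for *Col16a1*, and, with the mean of all probes, -0.025 with IL-6 for *Col6a3*. *Col6a2* minus *Col6a1* with TNFα turned to 0.053 with the second probe of *Col6a2*. When 1 array was left out, the sign turned for IL-1β in *Col14a1* (-0.53 to 0.21), for IL-6 in *Col6a1* (-0.22 to 0.028), *Col6a3* (-0.10 to 0.18), *Col16a1* (-0.061 to 0.18) and *Col14a1* (-0.71 to 0.23), for IL-1β against IL-6 in *Col14a1* (-0.28 to 0.43) and for IL-6 against TGFß1 in *Col16a1* (-0.18 to 0.021). The cause was not tested. *Col13a1* and the dim *Col14a1* are limited by their signal over background.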
